A study of Mus musculus with 14 samples.

Results

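Distal RNF2 sites in wild-type mouse embryonic stem cells were taken as the peaks of the second wild-type RNF2 library that lay more than 20 kb from the span of every protein-coding gene. Of the 28770 peaks of that library on chromosomes 1 to 19, X and Y, 3194 (11.1%, Wilson 95% interval 10.7 to 11.5%) met this rule. The rule used position alone, and it used no value of any other library. Most of these sites were weak and narrow, and a small minority came near the highest fold enrichment of the library or reached it. Sites with a fold of at least 10 held the hairpins of Mir9-1, Mir9-2, Mir9-3, Mir129-2, Mir137 and Mir193b, and others lay in the non-coding neighbourhoods of the developmental transcription factors Pax2, Foxd2 and Nr2f2.

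RNF2, also called RING1B, is a catalytic E3 ligase subunit of Polycomb repressive complex 1 (PRC1), which attaches ubiquitin to histone H2A. In embryonic stem cells PRC1 is known to concentrate on CpG islands, short stretches rich in unmethylated CpG dinucleotides, and above all on those of silent developmental regulators. BAP1 is the deubiquitinase that removes this ubiquitin. Many CpG islands lie away from annotated coding genes, at the starts of long non-coding RNAs (lncRNAs) and of the primary transcripts from which microRNAs are cut.

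The series held 14 chromatin immunoprecipitation sequencing (ChIP-seq) samples of embryonic stem cells of C57BL/6 background (age label E3.5-4.5 days), namely 7 ChIP libraries and their 7 inputs. RNF2 was precipitated from wild-type cells (2 libraries), from BAP1 knockout cells (2 libraries) and, as a control, from RNF2 knockout cells (1 library). BAP1 was precipitated from Bap1C91A/- cells, whose BAP1 lacks the catalytic cysteine (1 library), and, as a control, from BAP1 knockout cells (1 library). Every cell population, wild type included, had received 100 nM 4-OHT and, to block caspases, 10 µM emricasan over 4 days, and the C91A cells had an additional crosslinking step with disuccinimidyl glutarate. Nothing in the labels says that the 2 libraries of a genotype came from separate cultures or clones. Peak lists hold no expression values, so the labelled cell type could not be checked against its markers.

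The 2 wild-type RNF2 libraries held 58.4 and 149 M tags, and the 2 BAP1 knockout libraries held 54.1 and 139 M. The first library of each genotype had been called with an earlier MACS2 version and a longer fragment extension than the second, so depth, calling and replicate cannot be told apart. Genotypes were therefore compared within the first libraries and within the second libraries. With 1 library of a genotype in each such pair no test between genotypes was made, and every interval given covers counting error only.

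The microRNAs at these sites are shown first, since they name the transcripts at 6 strong sites. Of 215 microRNA hairpins of the RefSeq table (GRCm38.p6) that were themselves more than 20 kb from coding genes, 10 (4.65%) overlapped a distal site, whereas the sites covered 0.142% of the bases that far from coding genes. The 10 hairpins lay on 6 sites with folds of 11.5 to 19.9, below those of the 12 sites of highest fold, and 25 hairpins were within 5 kb of a site. The mature sequences below are from RefSeq, 5′ to 3′, with the seed (bases 2 to 8) in capitals, and they are those of Mir9, Mir129-2, Mir137 and Mir193b, of which at least 1 hairpin lay on each of the 6 sites.
mmu-miR-9-5p: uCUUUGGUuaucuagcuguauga
mmu-miR-9-3p: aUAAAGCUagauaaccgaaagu
mmu-miR-129-5p: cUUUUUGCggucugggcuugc
mmu-miR-129-2-3p: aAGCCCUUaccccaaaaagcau
mmu-miR-137-3p: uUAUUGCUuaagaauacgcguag
mmu-miR-193b-3p: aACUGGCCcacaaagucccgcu
The mature miR-9-5p and miR-9-3p were encoded by 3 hairpins on 3 chromosomes, and all 3 hairpins lay inside a site. miR-9 and miR-137 are known for their part in neuronal differentiation.

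Mir9-3 lay in the widest of all distal sites, a peak of 22641 bp (chr7:79495670-79518310, GRCm38) that covered the start and much of the body of its host lncRNA Mir9-3hg, 27.8 kb from Polg. This site had a fold enrichment over local background of 19.7 in the second wild-type library, as given by the authors' peak caller. The overlapping peaks had folds of 9.51 in the first wild-type library, 21.7 in the first BAP1 knockout library and 15.9 in the second. Mir9-1 lay in a site of 6697 bp (chr3:88211455-88218151) with a fold of 16.7, 24.7 kb from Rhbg, together with Mir3093 and an antisense hairpin. Mir9-2 lay in a site of 4523 bp (chr13:83735701-83740223) with a fold of 14.4, in the gene-poor stretch beside Mef2c, a transcription factor of muscle and neurons. All 3 sites had a peak in each of the 4 RNF2 libraries of wild-type and BAP1 knockout cells.

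Mir129-2 and the opposite-strand Mir129b lay in a site of 6353 bp with a fold of 19.9. The first wild-type list gave 5.94 there, the first BAP1 knockout list 20.4 and the second 22.1. Mir193b (fold 17.9, 3737 bp) and Mir137 (fold 11.5, 2416 bp) lay in sites without a peak in the first wild-type list. Both had one in the first BAP1 knockout library, with folds of 7.88 and 7.86, and in the second, with folds of 21.4 and 18.1. The cluster that begins with Mir17 was a weaker case. A site of 605 bp with a fold of 4.74 lay 1087 bp from the Mir17 hairpin and had a peak in the second BAP1 knockout library alone among the other lists. Members of that cluster are known for promoting proliferation. Their mature forms, shown to contrast a cluster at a weak site with the hosts above, share seeds in part, and miR-17-5p and miR-20a-5p have the same seed.
mmu-miR-17-5p: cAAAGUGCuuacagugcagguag
mmu-miR-20a-5p: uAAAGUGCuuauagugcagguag
mmu-miR-18a-5p: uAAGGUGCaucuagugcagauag
mmu-miR-19a-3p: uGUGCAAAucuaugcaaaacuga
mmu-miR-92a-3p: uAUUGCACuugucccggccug
Mir675, which is cut from the imprinted lncRNA H19, lay 438 bp from a site of 155 bp with a fold of 3.12 that had no peak in any other list.

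The lncRNA promoters on strong sites ranged from rich in CpG to free of it. Windows of 300 bases, from 250 bases before to 50 after a transcript start, were taken from RefSeq (GRCm38.p6). The motif searched was CG, which reads the same on both strands, and 94.6% of all 32817 promoter windows of the table held at least 1 CG. At least 15 CG were held by 34.6% of all windows but by 2.32% of the 4657 windows of lncRNAs more than 20 kb from coding genes. On sites with a fold of at least 10 there were 49 windows at 32 sites, with a median of 12 CG and a range of 0 to 38. Of these 19 (38.8%, 26.4 to 52.8%) held at least 15 CG and 5 held 3 or fewer. On weaker sites 41 of 153 windows (26.8%, 20.4 to 34.3%) held at least 15 CG, and the intervals overlapped. Windows that share a site are not independent, which these intervals ignore. The windows printed were chosen to span this range, 4 with at least 15 CG, 1 near the median and 1 with none. All lay inside sites with a peak in each of the 4 RNF2 libraries and are given 5′ to 3′ on the strand of the transcript, with every CG in capitals.
Mir9-3hg: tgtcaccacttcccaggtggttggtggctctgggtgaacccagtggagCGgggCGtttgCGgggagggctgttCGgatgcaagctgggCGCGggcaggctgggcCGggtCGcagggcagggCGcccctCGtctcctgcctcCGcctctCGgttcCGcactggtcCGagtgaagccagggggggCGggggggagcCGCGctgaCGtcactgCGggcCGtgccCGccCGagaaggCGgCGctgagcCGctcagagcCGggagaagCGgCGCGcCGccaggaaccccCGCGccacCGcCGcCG
9530059O14Rik: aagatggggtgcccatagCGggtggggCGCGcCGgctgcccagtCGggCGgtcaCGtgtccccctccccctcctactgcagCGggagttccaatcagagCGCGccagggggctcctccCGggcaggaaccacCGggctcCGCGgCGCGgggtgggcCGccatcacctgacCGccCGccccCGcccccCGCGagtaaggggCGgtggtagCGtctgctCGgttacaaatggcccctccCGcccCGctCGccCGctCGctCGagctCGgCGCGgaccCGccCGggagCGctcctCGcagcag
Dleu2: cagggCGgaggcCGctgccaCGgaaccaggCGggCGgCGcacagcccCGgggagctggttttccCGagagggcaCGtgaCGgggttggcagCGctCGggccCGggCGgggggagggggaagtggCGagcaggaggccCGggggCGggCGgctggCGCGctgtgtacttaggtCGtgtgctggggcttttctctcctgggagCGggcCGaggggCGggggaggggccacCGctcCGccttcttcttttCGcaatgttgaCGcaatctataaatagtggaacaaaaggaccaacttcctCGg
Jpx: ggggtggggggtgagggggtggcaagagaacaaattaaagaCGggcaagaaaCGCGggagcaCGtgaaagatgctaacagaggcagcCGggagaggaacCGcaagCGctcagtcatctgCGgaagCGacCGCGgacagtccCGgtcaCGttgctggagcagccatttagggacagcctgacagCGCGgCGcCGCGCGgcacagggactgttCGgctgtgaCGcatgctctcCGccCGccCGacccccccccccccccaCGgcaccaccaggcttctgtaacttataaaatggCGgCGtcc
C130071C03Rik: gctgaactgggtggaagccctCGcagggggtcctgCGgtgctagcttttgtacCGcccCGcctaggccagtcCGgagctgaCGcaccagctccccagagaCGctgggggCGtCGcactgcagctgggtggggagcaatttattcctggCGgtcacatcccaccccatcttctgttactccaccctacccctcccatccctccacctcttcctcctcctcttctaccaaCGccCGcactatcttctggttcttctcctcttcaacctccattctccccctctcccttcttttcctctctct
Gm35196: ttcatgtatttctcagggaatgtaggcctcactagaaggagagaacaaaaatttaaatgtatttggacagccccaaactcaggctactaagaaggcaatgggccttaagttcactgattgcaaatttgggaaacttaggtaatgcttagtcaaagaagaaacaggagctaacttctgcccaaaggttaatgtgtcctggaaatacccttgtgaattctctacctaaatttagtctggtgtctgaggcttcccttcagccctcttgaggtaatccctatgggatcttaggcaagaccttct
The Mir9-3hg window (chr7:79499776-79500075, plus strand) held 35 CG. The 9530059O14Rik window (chr9:122572251-122572550, plus strand) held 38. The Dleu2 window (chr14:61682324-61682623, minus strand) held 29, and Dleu2 is the host of a microRNA pair lost in chronic lymphocytic leukaemia. Jpx, whose window (chrX:103493308-103493607, plus strand) held 27, is an lncRNA known to activate Xist, and it lay in a site with a fold of 13.4. The first window of C130071C03Rik (chr13:83721131-83721430, plus strand) held 12 CG in a site with a fold of 22.3. The Gm35196 window (chr14:61690263-61690562, minus strand) held no CG and lay in the same site as that of Dleu2, with a fold of 21.6.

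Over all distal lncRNA promoter windows, the share with an RNF2 peak rose with the number of CG in each RNF2 library. In the second wild-type library a peak overlapped 8 of 1948 windows with 0 to 2 CG (0.411%, interval 0.208 to 0.808%). The share was 6.96% of 790 windows with 6 to 9 CG and 22.1% of 231 windows with 10 to 14 CG. It was 43.5% (31.9 to 55.9%) of 62 windows with 15 to 19 CG and 71.7% (57.5 to 82.7%) of 46 windows with 20 or more. The intervals of the lowest and the highest class did not overlap, although they too treat windows that share a site as independent. In windows with 20 or more CG the other libraries gave 84.8% in the second BAP1 knockout, 43.5% in the first BAP1 knockout and 23.9% in the first wild-type library. Occupied windows numbered 204 and had a median of 10.5 CG and 55.7% G+C, against 3 CG and 46.3% in the 4453 windows without a peak. Base composition and mappability differ together with the number of CG, and their part in this relation was not tested. A BAP1 C91A peak overlapped 2 windows, both with 20 or more CG.

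**Figure D1:**
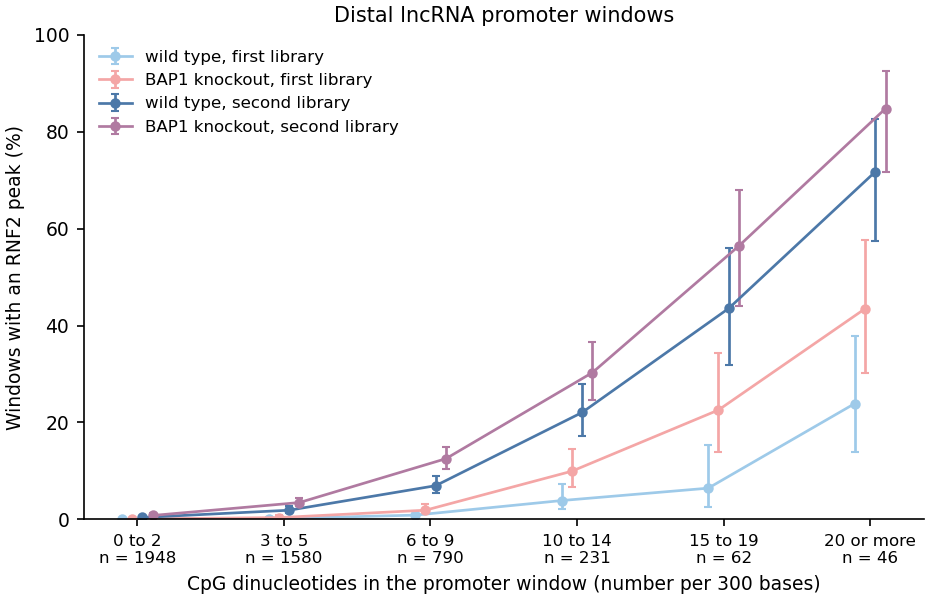
Share of distal lncRNA promoter windows (y axis, %) with a peak in each RNF2 library, by the number of CpG dinucleotides in the 300-base window (x axis, with the number of windows). Points are shares and bars are Wilson 95% intervals; in all 4 libraries the share is highest in windows with 20 or more CpG, from 23.9% in the first wild-type to 84.8% in the second BAP1 knockout library.

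Sites also lay in lncRNA genes more often than lncRNA genes fill the space beyond 20 kb. The summit lay inside a lncRNA gene for 892 sites (27.9%, 26.4 to 29.5%), and lncRNA genes made up 10.9% of the bases more than 20 kb from coding genes. For 350 of the 3077 sites off chromosome 18 (11.4%, 10.3 to 12.5%) the summit lay within 1 kb of a lncRNA promoter window, a zone that made up 0.872% of those bases. This share was 12.4% among sites with a fold of at least 10 and 10.8% among those under 3, and the intervals overlapped. Non-coding genes of any type were overlapped by 1126 sites (35.3%), of which pseudogenes accounted for 129. A further 868 sites (27.2%) were more than 20 kb from every gene of the table, coding or not. These last counts have no share of bases or of all peaks beside them. The shares in and near lncRNA genes were set against bases only, so they are not shown to be particular to distal sites.

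The sites were weaker and narrower than the other 25576 peaks of the same library. Their median fold was 3.02 (quartiles 2.67 and 3.82), against 3.23 (2.72 and 4.79) for the other peaks. Their median length was 213.5 bp, against 291 bp. A fold of at least 10 was reached by 176 sites (5.51%) and by 11.8% of the other peaks. A length of at least 5 kb was reached by 30 sites (0.939%) and by 2.02% of the other peaks. Together the sites covered 1.73 Mb, against 22.8 Mb for the other peaks. The median fold hardly changed with distance from coding genes, being 3.01 for the 722 sites at 20 to 30 kb and 3.01 for the 37 sites beyond 500 kb. The median distance was 50.1 kb and the largest 1823 kb.

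Of the sites closest to the distance limit, 1 was strong. The 3 sites just beyond it lay 20003 bp from Zfp704, 20008 bp from Camta1 and 20024 bp from Tcf12, with folds of 3.37, 3.33 and 15.4. The 3 peaks just short of it lay 19991 bp from Gm47978, 19988 bp from Zmym2 and 19982 bp from Vdac1, with folds of 3.23, 3.15 and 2.96. By chromosome the number of sites per Mb of distal sequence was highest on chromosome 17 (5.35) and chromosome 19 (5.14) and lowest on X (0.566) among chromosomes with a site. No peak of the library lay on Y. On chromosome 13 distal sites made up 22.7% of all peaks, the largest share of any chromosome.

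**Figure D2:**
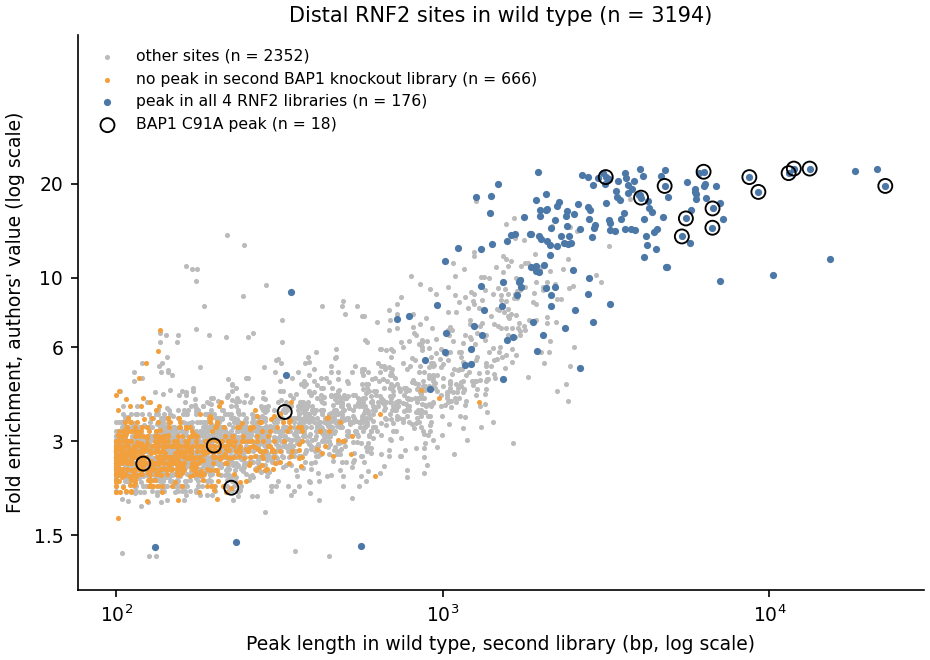
Fold enrichment (y axis, log scale, the authors' value) against peak length (x axis, bp, log scale) of all 3194 distal sites in the second wild-type library. Blue points are the 176 sites with a peak in all 4 RNF2 libraries, orange points the 666 sites with no peak in the second BAP1 knockout library, and circles the 18 sites with a BAP1 C91A peak; blue points gather among long peaks of high fold and orange points among short peaks of low fold.

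In the first wild-type library 186 of the 3194 sites had a peak (5.82%, 5.06 to 6.69%), against 11.2% of all peaks of the second wild-type list. In the first BAP1 knockout library 505 had one (15.8%, 14.6 to 17.1%), against 27.3% of all peaks. In the second BAP1 knockout library 2528 had one (79.1%, 77.7 to 80.5%), against 86.3% of all peaks. In each of the 3 libraries the share was below that of all peaks. In the RNF2 knockout library no site had a peak, as no peak had been called there at all (0% of all peaks). The first wild-type list held 242 peaks that were themselves more than 20 kb from coding genes (5.99% of its 4038), and each of the 242 overlapped a peak of the second wild-type list.

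Presence in the other lists followed strength in the second wild-type library. Among the 1471 sites with a fold under 3, 4 had a peak in the first wild-type list (0.272%), 53 in the first BAP1 knockout library (3.60%) and 986 in the second (67.0%). Most of the 4 lay at the ribosomal DNA copy Rn18s-rs5, with first wild-type folds of 1.24 to 1.40, and are uncertain. Among the 176 sites with a fold of at least 10 the numbers were 134 (76.1%, 69.3 to 81.8%), 170 (96.6%, 92.8 to 98.4%) and all 176. The other peaks of the same strength gave 78.7%, 98.7% and 100% in the same order. The first of these lay inside the interval of the distal sites and the second just above it. Between folds of 6 and 10 the first BAP1 knockout library covered 71.7% (64.5 to 77.9%) of the distal sites and 80.6% (78.8 to 82.3%) of the other peaks, and these intervals did not overlap. Under a fold of 3 the second BAP1 knockout library covered 67.0% (64.6 to 69.4%) of the distal sites and 76.3% (75.5 to 77.2%) of the other peaks. These differences between distal and other peaks were not tested further, since peaks of 1 domain are not independent.

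**Figure D3:**
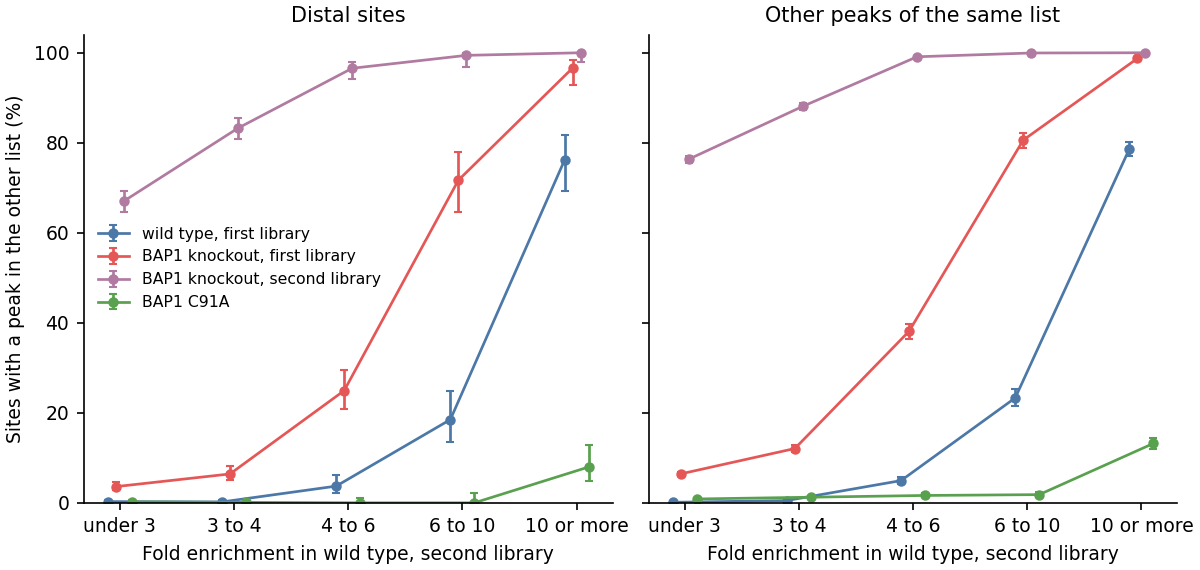
Share of distal sites (left) and of the other peaks of the same library (right) with a peak in 4 other lists (y axis, %), by fold enrichment in the second wild-type library (x axis). Points are shares and bars are Wilson 95% intervals; at a fold of 10 or more 76.1% of distal sites and 78.7% of other peaks had a peak in the first wild-type list.

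Within the first pair of libraries more distal sites had a peak in BAP1 knockout cells than in wild-type cells. A peak in the first BAP1 knockout library and none in the first wild-type library was found at 329 sites (10.3%, against 16.5% of all peaks). The opposite was found at 10 sites (0.313%, against 0.382% of all peaks), and 176 sites had both (5.51%, against 10.8%). These are not the same sites as the equally many with a fold of at least 10, and 134 sites belonged to both sets. Neither first list had a peak at 2679 sites (83.9%, against 72.3%). The lists differed in length, with 7946 peaks in the first BAP1 knockout and 4038 in the first wild-type library. When every RNF2 list was shortened to its 4038 peaks of highest fold, 251 distal sites remained, and 61.0% of them had a peak in the first wild-type list against 65.7% in the first BAP1 knockout library. That is 153 against 165 sites, with overlapping intervals (54.8 to 66.8% and 59.7 to 71.3%).

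Within the second pair the rule itself required a wild-type peak, so a site could only keep or lose a peak in BAP1 knockout cells. No peak in the second BAP1 knockout library was found at 666 sites (20.9%, against 13.7% of all peaks), and these had a median fold of 2.78 and a median length of 139 bp, with no fold above 6.79. The 2528 sites with a peak had a median fold of 3.19 and a median length of 262.5 bp. Both second libraries and neither first library had a peak at 2013 sites (63.0%, against 58.6% of all peaks). Seen from the other side, the second BAP1 knockout list held 5368 peaks more than 20 kb from coding genes (13.5% of its 39872). Of these 2146 (40.0%) overlapped a wild-type peak of the second library, and the 3222 that did not had a median fold of 2.97 and a median length of 172 bp.

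Sites lay in groups. When sites less than 50 kb apart were joined, the 3194 sites formed 1389 groups, of which 723 held 1 site and 37 held at least 10. The 37 large groups held 505 sites. Within the spans of all groups, peaks of the first wild-type library covered 310 kb and those of the first BAP1 knockout library 666 kb. Of the 147 groups covered in both, 138 (93.9%) were covered over a greater length in BAP1 knockout cells, with medians of 1.1 kb in wild type and 2.1 kb in knockout. These lengths were not recomputed on shortened lists. In the second libraries the covered lengths were 1734 kb in wild type and 1932 kb in BAP1 knockout, and 455 of 1213 groups (37.5%) were covered over a greater length in the knockout. The group spans were drawn from the second wild-type peaks, and length was counted inside the span only. In the 723 groups of 1 site the wild-type peak filled the whole span, so the knockout could not cover more. This last share was thus held down by the choice of sites and gives no direction for the knockout.

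Per site, the length of overlapping BAP1 knockout peaks was the greater at most sites in both pairs. Here the whole length of every overlapping peak was summed, and a wide peak counted at each site it overlapped. In the second pair the wild-type length was that of the site alone. That favours the knockout where a knockout peak spans several wild-type sites. Of the 176 sites with a peak in both first libraries, 164 (93.2%, 88.5 to 96.1%) had the greater length in the knockout, with medians of 1061.5 bp in wild type and 1768.5 bp in knockout. Of the 2528 sites with a peak in both second libraries, 2121 (83.9%, 82.4 to 85.3%) did, with medians of 262.5 and 863.5 bp. At a fold of at least 10 the share in the second pair was 107 of 176 (60.8%, 53.4 to 67.7%), with medians of 2787.5 and 2877.5 bp. The other peaks gave 94.3% in the first pair and 87.2% in the second. In the second pair neither measure of length thus gives a direction for the knockout. Most sites had the greater summed length in the knockout, but that measure favours it. Most group spans were not covered over a greater length in the knockout, but those spans were drawn from the wild-type peaks. Wherever a lone wild-type peak filled the span, the knockout could not cover more.

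The group with the most sites (31, over 219.7 kb) lay between Haao and Zfp36l2, an RNA-binding protein that destabilises messenger RNAs. Its peaks covered 13.3 kb in the second wild-type and 13.5 kb in the second BAP1 knockout library, against 0.713 kb and 1.48 kb in the first pair. The next lay between Hif1an and Pax2, a paired-box factor of kidney, eye and midbrain, with 22 sites over 83.9 kb. There the covered length was 2.37 kb in the first wild-type and 8.65 kb in the first BAP1 knockout library, and 16.7 kb and 22.6 kb in the second pair, so the knockout was longer in both pairs. Beside Chic2 a group of 20 sites covered 5.77 kb in the second wild-type library and 2.26 kb in the second BAP1 knockout library. A group of 19 sites beside Rpl11 and Id3, an inhibitor of basic helix-loop-helix factors, covered 7.09 kb and 5.41 kb in that order and had no peak in either first library. A group of 18 sites beside Bmp7, a bone morphogenetic protein ligand, covered 11.4 kb and 12.5 kb in the second pair. An equally large group of 18 sites beside Hrh1, a histamine receptor, and Atg7, an enzyme of autophagy, covered 2.80 kb and 0.446 kb in the second pair. There 3 of the 18 sites had a peak in the second BAP1 knockout library and none had one in either first library. The covered length was thus greater in the knockout in some groups and smaller in others.

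**Figure D4:**
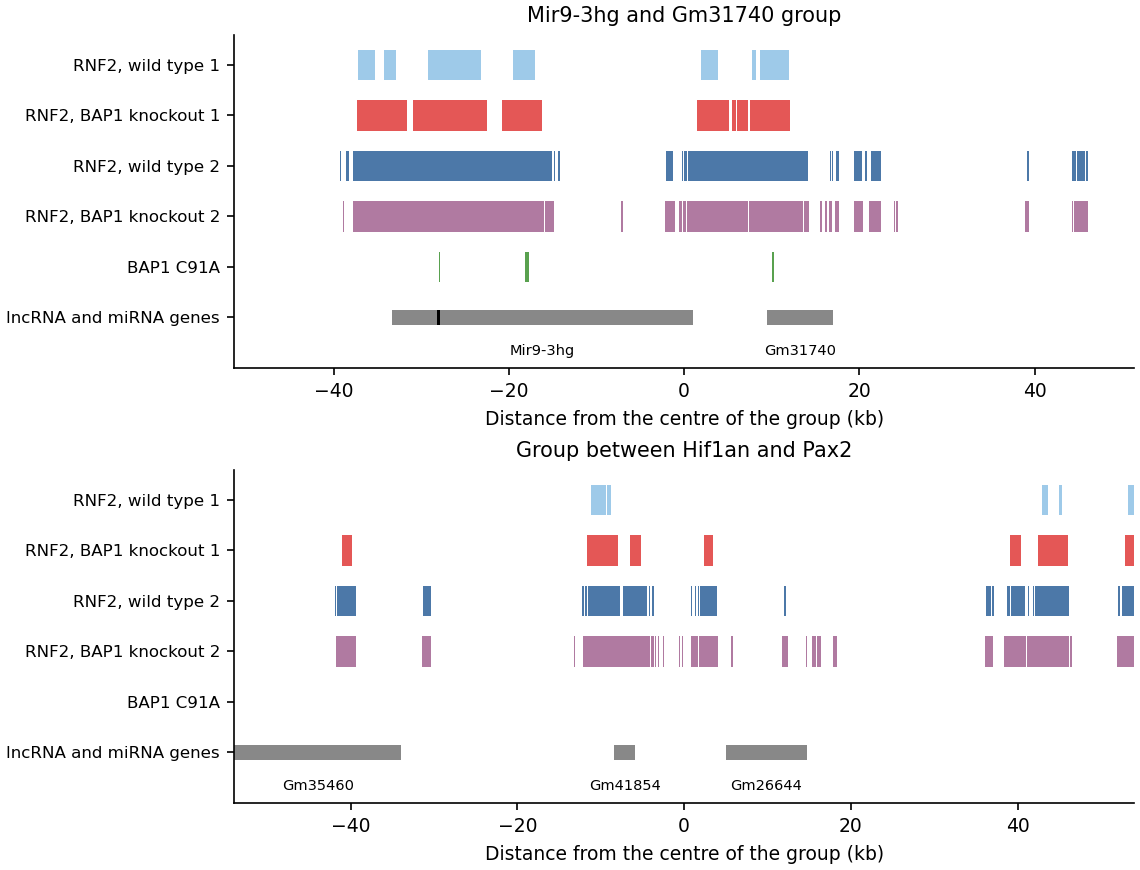
Peaks of 5 lists around 2 groups of distal sites, with the distance from the centre of the group in kb on the x axis and 1 row for each list; grey bars are lncRNA genes and the black bar a microRNA gene. In the Mir9-3hg group (17 sites) peaks covered 17.7 and 28.4 kb in the first wild-type and BAP1 knockout libraries and 41.3 and 42.9 kb in the second; in the Pax2 group BAP1 C91A had no peak.

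The nearest protein-coding gene of each site was sorted into 6 lists defined by gene symbols. Developmental transcription factors, the family most often held silent by Polycomb in stem cells, were the nearest gene of 419 sites (13.1%, 12.0 to 14.3%), against 6.76% of all peaks. They were nearest for 5.96% (5.68 to 6.26%) of the other peaks and for 4.52% of the bases more than 20 kb from coding genes, which gave 7.58 sites per Mb. The 419 sites lay at 115 genes and in 152 of the 1389 groups (10.9%). They made up 17.0% of the 176 sites with a fold of at least 10, that is 30 sites. A peak in the first wild-type list was found at 33 of them (7.88%), in the first BAP1 knockout library at 65 (15.5%) and in the second at 309 (73.7%). The shares over all distal sites were 5.82%, 15.8% and 79.1%, and those over all peaks 11.2%, 27.3% and 86.3%.

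Neural adhesion, guidance and channel genes stood on the other side. They were nearest for 11.1% of the distal bases but for 71 sites (2.22%, 1.77 to 2.79%, against 3.46% of all peaks), or 0.525 sites per Mb. Developmental signalling genes were nearest for 62 sites (1.94%, 1.52 to 2.48%, against 1.66% of all peaks) and for 1.2% of the bases. Zinc-finger genes, listed by symbols that the KRAB family shares with others, were nearest for 89 sites (2.79%, 2.27 to 3.42%, against 1.93% of all peaks) and 1.19% of the bases. Ribosomal protein genes were nearest for 40 sites (1.25%, 0.921 to 1.70%, against 0.313% of all peaks) at 8 genes, and for 0.311% of the bases. Chemosensory receptor genes were nearest for 16 sites (0.501%, 0.309 to 0.812%, against 0.219% of all peaks) and 1.15% of the bases. The remaining 2497 sites lay nearest to genes in none of the lists (78.2%, against 85.7% of all peaks), at 2.53 sites per Mb. Ribosomal protein genes had the most sites per Mb of any list, 10.5, above the 7.58 of developmental transcription factors. Zinc-finger genes had 6.13, developmental signalling genes 4.21 and chemosensory receptor genes 1.14. Median folds differed little, from 2.88 beside ribosomal protein genes to 3.23 beside zinc-finger genes.

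**Figure D5:**
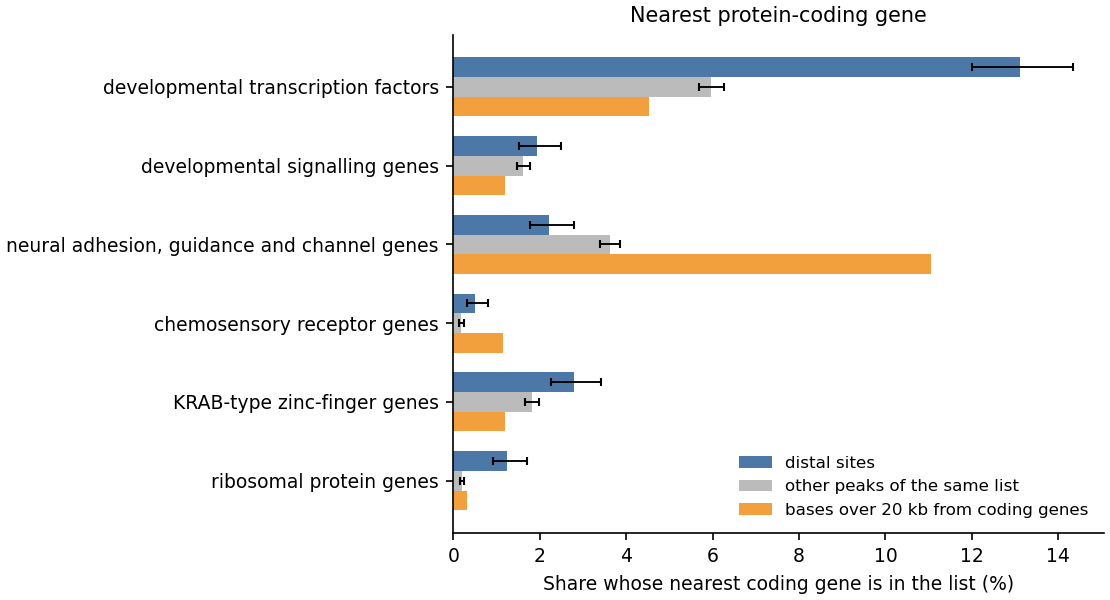
Share (x axis, %) of distal sites (blue), of the other peaks of the same library (grey) and of the bases more than 20 kb from coding genes (orange) whose nearest protein-coding gene is in each of 6 gene lists (y axis). Bars on the shares are Wilson 95% intervals; for developmental transcription factors the 3 shares are 13.1%, 5.96% and 4.52%, and for neural adhesion, guidance and channel genes 2.22%, 3.62% and 11.1%.

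Among the transcription factors, Pax2 had the most sites. Its 18 sites lay 23.9 to 77.9 kb away with a highest fold of 14.2, and 1, 5 and 18 of them had a peak in the first wild-type, first BAP1 knockout and second BAP1 knockout libraries. Foxl1, a forkhead factor of gut mesenchyme, had 14 sites up to 189 kb away with a highest fold of 6.90, of which 9 had a peak in the second BAP1 knockout library and none in the first libraries. Otx2, a homeobox factor of the forebrain and of the primed pluripotent state, had 14 sites with a highest fold of 6.90, and 2, 1 and 14 of them were found in the same 3 libraries. Sox9, a factor of cartilage and testis with a wide regulatory desert, had 14 sites with a highest fold of 5.23. Only 3 of these had a peak in the second BAP1 knockout library. In the second BAP1 knockout library every Otx2 and Pax2 site thus had a peak, and few Sox9 sites did. The share was 79.1% over all distal sites and 86.3% over all peaks. Neighbouring peaks of 1 library are not independent, and a difference between these genes was not tested.

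Among signalling genes, Bmp7 had 18 sites with a highest fold of 14.2, and 14 had a peak in the second BAP1 knockout library. That share was 82.3% over all sites beside signalling genes and 79.1% over all distal sites. Wnt7b, a Wnt ligand, had 7 sites with a highest fold of 9.88, and Fzd7, a Wnt receptor, had 7 with a highest fold of 3.26. All sites of both had a peak in that library. Inhbb, an activin subunit, had 5, also all with a peak there. Adgrl2, a latrophilin adhesion receptor, led the neural list with 6 sites at a highest fold of 5.12, and Kcnrg, a regulator of potassium channels, followed with 4 sites, 1 of them the Dleu2 site of fold 21.6. Rpl11 (13 sites), Rpl14 (9) and Rpl38 (8) held 30 of the 40 sites beside ribosomal protein genes, and the sites beside Rpl11 shared their interval with Id3. In the zinc-finger list Zfp516 and Zfp64 had 8 sites each, and Zfp644 had 7 with a highest fold of 15.8. The list was drawn from symbols, and these members are zinc-finger proteins without a KRAB domain. Vmn1r223, a pheromone receptor, had 6 of the 16 chemosensory sites, with a highest fold of 13.1. Beside genes in no list, Chic2 had 20 sites, Zfp36l2 17, and Med13l, a subunit of the Mediator kinase module, and Haao had 15 each.

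The 12 sites of highest fold ranged from 21.6 to 22.4 in the second wild-type library, and all 12 had a peak in each RNF2 library of wild-type and BAP1 knockout cells. Their folds spanned 5.96 to 14.4 in the first wild-type library, 10.5 to 24.7 in the first BAP1 knockout and 14.8 to 23.9 in the second. That 23.9 was the highest second BAP1 knockout fold at any distal site, and several of the 12 shared it exactly. A fold of 15.9 likewise recurred there, at the Tmem33, Topaz1 and Mir9-3hg sites. Whether folds were capped was not tested, so the highest folds do not rank sites. The 3 at the top of the second wild-type library shared a fold of 22.4, also the highest among its other peaks. One lay at Gm30340, 151 kb from Cypt12 (chr3:17783959-17797241). One lay at Gm29683, 61.5 kb from Nr2f2, an orphan nuclear receptor of vessels and mesenchyme (chr7:70278558-70290439). One lay at Gm33655, 61.2 kb from Foxd2, a forkhead factor (chr4:114841076-114845100). The fourth, of 21386 bp and a fold of 22.3, covered Gm52046 and C130071C03Rik beside Mef2c (chr13:83713193-83734578), and lay in the same group as the site that holds Mir9-2. The others lay near Dio3, Gm38821, Tmem33, Defb7, Jak1, Kcnrg, Topaz1 and Rasgrf1, at 25.6 to 173 kb. The site near Dio3, a thyroid hormone deiodinase in an imprinted domain, had folds of 22.1, 8.42, 18.6 and 21.3 in the second wild-type, first wild-type, first BAP1 knockout and second BAP1 knockout libraries.

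The 8 widest sites were 10226 to 22641 bp long. Besides the Mir9-3hg, Mef2c, Cypt12, Nr2f2 and Kcnrg sites they comprised one near Gm38821 (18247 bp), one near Tmco5 (15357 bp) and one near Bcor (10226 bp), a subunit of a variant PRC1. Peaks overlapping the Bcor site were 1378 bp long in the first wild-type and 6780 bp in the first BAP1 knockout library, and 10061 bp in the second BAP1 knockout library. For the Mir9-3hg site the lengths were 11817, 18396 and 22870 bp in the same order. For the Gm38821 and Tmco5 sites the first BAP1 knockout peaks were shorter than the first wild-type peaks, at 16974 against 17370 bp and at 8020 against 8770 bp.

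Strong sites occurred far from any coding gene. Of the 176 sites with a peak in all 4 RNF2 libraries, the most remote lay 1392 kb from Tenm3 in the lncRNA gene 1700019L22Rik (chr8:50914518-50917407). Its folds were 19.8 in the second wild-type library, 5.76 in the first wild-type library, and 11.5 and 14 in the BAP1 knockout libraries. Next came a site 340 kb from Rragc (chr4:124276668-124278511) with folds of 13.8, 2.31, 9.49 and 18.1 in that order. A site at Gm13652, 260 kb from Mtx2, the coding neighbour of the Hoxd cluster (chr2:75136476-75139271), had folds of 15.4, 3.97, 6.87 and 16.1. A pair of sites on X lay 335 kb from H2al1j and 228 kb from Bcor, and a site 289 kb from Med13l had a fold of 6.35. The most remote site of all, 1823 kb from Tenm3, was weak, with a fold of 3.01 and a peak in the second BAP1 knockout library alone.

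BAP1 C91A peaks were found at 18 sites (0.564%, 0.357 to 0.889%), against 2.37% of all peaks of the second wild-type list. Of these, 14 were among the 176 sites with a fold of at least 10 (7.95%, 4.80 to 12.9%), where the other peaks of that strength gave 13.2%. The BAP1 peaks overlapping a site were short, together 63 to 908 bp, and the RNF2 sites were up to 22641 bp long. At some weak RNF2 sites the BAP1 length was the greater. It was 908 bp at the Gm36445 sites of 328 and 199 bp, and 258 bp at the Ermp1 site of 121 bp. By BAP1 fold the first pair of sites shared 1 BAP1 peak of fold 5.35 at Gm36445, between Nlrp4f and Zfp369, where RNF2 was weak (folds 3.72 and 2.91). The Mir9-3hg site followed at a BAP1 fold of 4.53, the Gm29683 site near Nr2f2 at 4.29, and a weak RNF2 site near Ermp1 at 4.06. The sites near Ulbp1, Gdi2, Crisp4 and Cypt12 and the AW047730 site near Mef2d had BAP1 folds of 3.61 to 3.99, and their RNF2 folds were 13.6 to 22.4. The Mir9-1 site had the lowest BAP1 fold, 3.17. None of the 18 had a peak in the BAP1 knockout control. That control had 32.5 M tags against 415 M in the C91A library, and the part of this difference in depth was not tested.

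The BAP1 knockout control had a peak at 10 sites (0.313%, against 0.0487% of all peaks of the second wild-type list). Of these, 9 lay on or within 3.27 kb of the ribosomal DNA copy Rn18s-rs5 on chromosome 17, with RNF2 folds of 1.28 to 2.08, and 8 of the 9 had lower folds than any other site. The remaining 1 lay in the 5S ribosomal RNA cluster on chromosome 8 with a fold of 6.57. Reads of repeated sequence can be placed at any copy, so these 10 sites are uncertain. Some of those on chromosome 17 had a peak in all 4 RNF2 lists and are counted among the 176 such sites. Mappability and copy number were not measured at any site. Of the sites with no peak in the second BAP1 knockout library, the 5 of highest fold included 2 near Smgc (folds 6.79 and 5.81) and 1 in the 5S cluster near Rhou (4.79), each 117 to 136 bp long. The others lay near Osr1, a kidney and heart factor (5.34), and near Prr5 (4.37, 859 bp).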

How the data were processed

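Peaks had been called by the authors for each ChIP library against its own input with MACS2 (per the file headers; cutoff of 0.05 on the q-value), with version 2.1.0.20150420 in the first RNF2 and the BAP1 libraries and 2.1.1.20160309 in the second RNF2 libraries. Single-end reads of 50 bases had been aligned to GRCm38 by GSNAP, as the submitters' processing notes have it. The deposited lists give a pileup signal, −log10 p and q values and a fold enrichment ratio for each peak. Fold was used only to describe and rank peaks within a list, −log10 q as an alternative threshold, and the pileup signal was not used further. In the second RNF2 libraries 100 bp had been given as extension, against 297 and 323 bp in the first.

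Distances were computed to 21779 protein-coding genes of a RefSeq table of GRCm38.p6, after 108 entries within the first 3 Mb of chromosomes other than Y, taken to be unplaced, were removed. A site had a peak in another list where at least 1 bp overlapped. Sequences came from RefSeq tables of the same build, and their chromosome 18 was not used here. Bases beyond 20 kb were counted between the first and last coding gene of each chromosome, assembly gaps included, and held 3180 of the 3194 summits. Scripts ran in Python 3.11.15 with pandas 2.3.3 and scipy 1.17.1, and the interval functions were tested on simulated data. Unnumbered libraries were taken as the first replicate. The members and gene lists were chosen with earlier results of these data known. Named sites were the 12 of highest fold, the 8 widest, 10 by BAP1 fold, 8 most remote in all 4 RNF2 lists, the 5 strongest without a second BAP1 knockout peak, those on control peaks, the 4 genes with most sites in each list and the 5 largest groups with the one tied for the last place; the microRNA and CpG examples were added after their values were seen.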

Additional observations from a re-analysis of the deposited data

How the results depend on the processing

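Results were recomputed under alternative settings, and a share was taken as moved where it left the 95% interval of the reported value, a count where it changed by more than 1.5 times. The number of sites, 3194, became 4302 at more than 10 kb, 1599 at more than 50 kb, 868 with genes of all types, 1700 and 780 at a −log10 q of at least 5 and 10, 251 with RNF2 lists shortened to the shortest, and 242 from the first wild-type list alone. Moving the distance to 10 or 50 kb kept the shares in all 4 lists inside their intervals. With genes of all types the shares were 3.69% in the first wild-type, 10.8% in the first BAP1 knockout, 73.7% in the second BAP1 knockout and 0.230% in the BAP1 C91A list. At a −log10 q of at least 5 they were 9%, 24.4%, 85.9% and 0.294%, and at 10 they were 13.5%, 35.8%, 91.2% and 0%. When the wild-type summit had to lie in the other peak they were 14.3% in the first and 71.9% in the second BAP1 knockout and 0.188% in the C91A list. When 50% of the wild-type peak had to be covered they were 2.13%, 12.0%, 72.1% and 0.0626%. With shortened lists the RNF2 shares were 61.0%, 65.7% and 64.5%. The share nearest to developmental transcription factors was 15.1% beyond 50 kb, 14.5% at a −log10 q of at least 10, 17.1% with shortened lists and 19% in the first wild-type list alone. In every alternative run with both lists, the first BAP1 knockout list held more sites than the first wild-type list. Only the shortened lists were set to equal length, and there it was 165 against 153 of 251 sites, with overlapping intervals. No paired analysis was possible because the results come from no test: the second wild-type library defined the sites, which leaves 1 pair of libraries whose values the rule did not use. Fold and depth differ between first and second libraries, so a missing peak in a first library does not show missing RNF2. Counts of BAP1 sites are small.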

Other observations

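Tall but narrow sites formed a set of their own, which was chosen after its values were seen. A fold of at least 6 with a length under 300 bp was found at 20 sites in 9 groups, with folds of 6.22 to 13.7. The nearest non-coding gene was a pseudogene for 15 of them and a ribosomal RNA gene for 4, together 95% (Wilson 95% interval 76.4 to 99.1%). Among the 329 sites of the same fold but at least 300 bp long it was a pseudogene or ribosomal RNA gene for 72 (21.9%, 17.8 to 26.7%). No limit of distance was set, so nearest does not mean overlapping. The pseudogene nearest to the narrow Smgc site of fold 6.79 lay 52.3 kb away. The intervals treat sites as independent, although the 20 narrow sites lay in 9 groups. Of the 20 narrow sites, none had a peak in the first wild-type list, 6 had one in the first BAP1 knockout library and 19 in the second. Of the 329 longer sites 166, 288 and 329 did. Of the 20 narrow sites 1 lay on a peak of the BAP1 knockout control. They comprised sites in the 5S ribosomal RNA cluster near Rhou and Gas8 on chromosome 8, a set near Smgc on chromosome 15, and sites near Gm2808 on chromosome 17 and near Gm20767 on chromosome 13.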
